A study of Cavia porcellus with 24 samples.

Results

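A set of 2131 CpG sites was methylated in hippocampus and open, that is almost free of methylation, in blood of control guinea pigs, out of 463059 CpG sites (0.460%) that were covered on both DNA strands in both tissues. A CpG is a cytosine followed by a guanine, so it carries a cytosine on each strand. The sites were chosen on the minus strand of the control animals alone, as those with at least 70% methylation in hippocampus and at most 20% in blood, and their levels and the changes with synthetic glucocorticoid (sGC) were then read on the plus strand. A CpG entered when both of its cytosines were listed in the tables of both tissues with at least 20 reads in each of the 4 pools described next.

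DNA methylation was measured by reduced representation bisulfite sequencing (RRBS), which reads DNA cut at MspI sites after unmethylated cytosines have been converted, in hippocampus and whole blood of 12 female Hartley guinea pigs aged 14 days, 1 per litter, with both tissues taken from each animal. The sGC group were 6 offspring of mothers injected with betamethasone at 1 mg/kg, and the control group (Con) were 6 offspring of mothers injected with saline. Injections were given in 3 courses, at gestational days 40/41, 50/51 and 60/61. The comparison asks whether prenatal sGC exposure is accompanied by like methylation differences in the brain and in blood. Reads were available only as sums over the 6 animals of a group, methylated and total, so each of the 4 pools gives 1 value per cytosine, the spread between animals is not known, and every test below compares pools of reads rather than animals.

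Methylation of CpGs is copied onto the new strand at each cell division, so both strands of a CpG usually carry the same state. Most CpGs of a mammalian genome are methylated in every tissue, whereas CpG-rich promoters are mostly unmethylated, and between these lie sites such as enhancers that lose methylation in the cell lineages that use them. Hippocampus holds neurons, several kinds of glia and vessels, and the DNA of mammalian blood comes from the white cells. A level over such a mixture cannot tell a share of cells that is fully methylated from partial methylation in all of them, and fewer cells of a type cannot be told apart from a lower level in each.

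On the plus strand the chosen CpGs had somewhat fewer reads in hippocampus than all CpGs covered, and about as many in blood. Their median was 103 reads in sGC hippocampus, 92 in control hippocampus, 119 in sGC blood and 94 in control blood, against 114, 104, 119 and 93 reads over all CpGs covered. The identity of the tissues was not checked against marker genes, because no annotation of the genome build was used here.

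On the plus strand the CpGs kept the contrast between the tissues. Their median methylation was 78.7% in control hippocampus (quartiles 72.1 and 85.2) and 11.9% in control blood (quartiles 7.55 and 17.3). In the sGC pools it was 74% in hippocampus (quartiles 67.3 and 81.2) and 5.67% in blood (quartiles 2.17 and 11.1). Both strands were read from the DNA of the same animals, so the plus strand repeats the reading of the control pools and not the animals. Hippocampus lay above blood at 2130 of the 2131 CpGs in the control pools and at 2130 in the sGC pools, and the median gap was 65.4 and 66.4 percentage points.

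**Figure D1:**
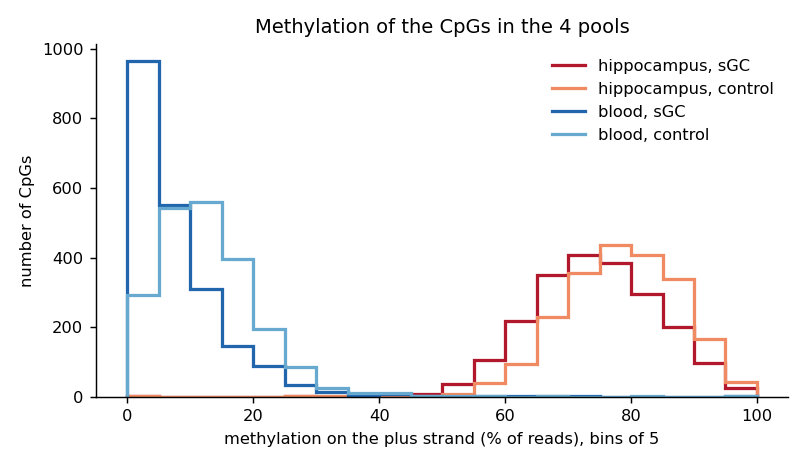
Methylation on the plus strand (%, x axis) of the 2131 CpGs in each of the 4 pools, with the number of CpGs per bin on the y axis. The hippocampal pools lie around medians of 78.7% (control) and 74% (sGC) and blood pools around 11.9% (control) and 5.67% (sGC), and in both tissues the sGC pool lies to the left.

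The limits of the rule were met less often on the strand that it did not use. In the control pools 1748 CpGs (82.0%) had at least 70% methylation in hippocampus on the plus strand, 1813 (85.1%) had at most 20% in blood, and 1477 (69.3%) had both. In the sGC pools 1275 (59.8%) had both. The sGC animals gave no value to the rule, and in their pools 2122 of the 2131 CpGs (99.6%) were called higher in hippocampus than in blood, by a two-sided Fisher's exact test of the reads with Benjamini-Hochberg adjustment over all cytosines in both tables. A call required an adjusted p under 0.05 together with at least 5 points of difference. The same call was made at 6.37% of all CpGs covered.

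A gap of at least 50 points in the sGC pools was present at 1998 CpGs (93.8%). The CpG on scaffold DS562870.1 at position 32098270 had 98.6% methylation in sGC hippocampus and 100% in control hippocampus, beside 3.75% in sGC blood and 8.16% in control blood. At position 8734435 of DS562917.1 the levels were 95.9% and 100% in hippocampus and 0 of 72 reads, which allows up to 4.17%, and 1.59% in blood, again for sGC and control. These and 3 others, at position 82847606 of DS562855.1, 98292 of DS563237.1 and 32098288 of DS562870.1, had the widest gaps in the sGC pools, each over 90 points.

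A gap under 20 points was found at 4 CpGs, where the strands differed. At position 16193044 of DS562872.1 the plus strand gave 1.89% in control hippocampus and 1.37% in control blood, whereas the minus strand that chose it gave 87.1% and 12.3%. At position 27748106 of DS562864.1 the plus strand gave 95.5% and 96.6%, and the minus strand 77.7% and 13.1%. The levels of these sites are uncertain, because 1 of their strands contradicts the other. On the other strand the CpGs nearest to the limits scattered to either side of them. The 3 just inside the hippocampal limit, at 70% on the minus strand, had 32.1% to 69.0% on the plus strand, and 3 just outside, at 69.9%, had 68.7% to 74.4%. At blood limit, 3 inside at 20% had 14.9% to 31.8% on the plus strand and 3 outside at 20.1% had 19.3% to 25.1%.

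In both tissues most of these CpGs were less methylated in the sGC pool than in the control pool. The median difference of sGC less control on the plus strand was -4.11 percentage points in hippocampus (quartiles -9.29 and 1.02) and -5.52 points in blood (quartiles -8.84 and -1.49). In hippocampus 1500 CpGs (70.4%) were lower with sGC, 627 (29.4%) were higher and 4 were equal. In blood 1763 (82.7%) were lower, 367 (17.2%) were higher and 1 was equal. Over all CpGs covered the medians were 0.654 and 0.400 points, and 42.6% and 45.8% were lower. In summed reads, 171692 of 235610 (72.9%) were methylated in sGC hippocampus against 160715 of 206100 (78.0%) in control hippocampus, and 19894 of 272905 (7.29%) in sGC blood against 28848 of 217029 (13.3%) in control blood. At 142 CpGs (6.66%) no read was methylated in sGC blood, compared to 26 (1.22%) in control blood. The median depths of these pools were 119 and 94 reads, and the same shares over all CpGs covered are not given here.

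**Figure D2:**
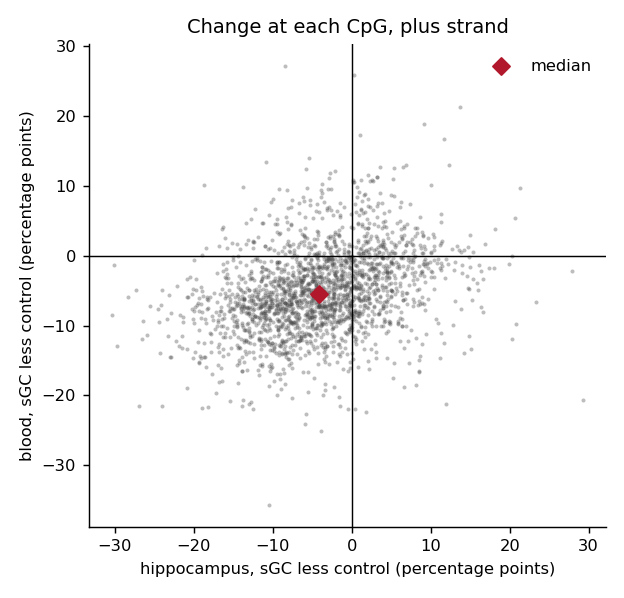
Difference of sGC less control on the plus strand (percentage points) in hippocampus (x axis) and in blood (y axis), 1 point for each of the 2131 CpGs. Most points lie in the lower left, where 1322 CpGs (62.0%) were lower with sGC in both tissues.

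Most of the CpGs had lower methylation in both tissues. Methylation was lower with sGC in both tissues at 1322 (62.0%), compared to 21.0% of all CpGs covered, and higher in both at 190 (8.92%), compared to 32.3%. The shares that were lower in each tissue alone multiply to 58.2% for the chosen CpGs and to 19.5% for all CpGs covered, close to the 62.0% and 21.0% found, so the excess lies mostly in the share of each tissue. It was lower in hippocampus alone at 177 and lower in blood alone at 437. Across the CpGs the difference in hippocampus had a Pearson correlation of 0.315 and a Spearman correlation of 0.350 with the difference in blood (n = 2131), and 0.171 and 0.123 over all CpGs covered (n = 463059). This is a description without a test, since neighboring CpGs share reads and the tissues share their animals.

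The control pools served both to choose the CpGs and as the reference of the change. When the same limits were set on the minus strand of the sGC pools instead, an alternative chosen after the data were seen, they gave 2070 CpGs with medians of -3.67 points in hippocampus and -5.11 points in blood, of which 68.6% and 81.1% were lower with sGC. When the limits had to hold in both sGC and control pools, 1366 CpGs remained with medians of -3.58 and -5.08 points.

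The reverse class of CpGs, open in hippocampus and methylated in blood by the same limits, had differences of the opposite sign. Its 4039 CpGs had medians of 5.73 points in hippocampus and 6.83 points in blood, and 79.5% and 80.2% of them were higher with sGC. Their median level was 21.7% in sGC and 15.7% in control hippocampus, and 89.3% in sGC and 81.6% in control blood. The 220474 CpGs methylated in both tissues had medians of 0.606 and 0.429 points, and the 123621 open in both had 0.152 and -0.0749 points. Since the 4 classes share the pools, these values are set side by side without a test.

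**Figure D3:**
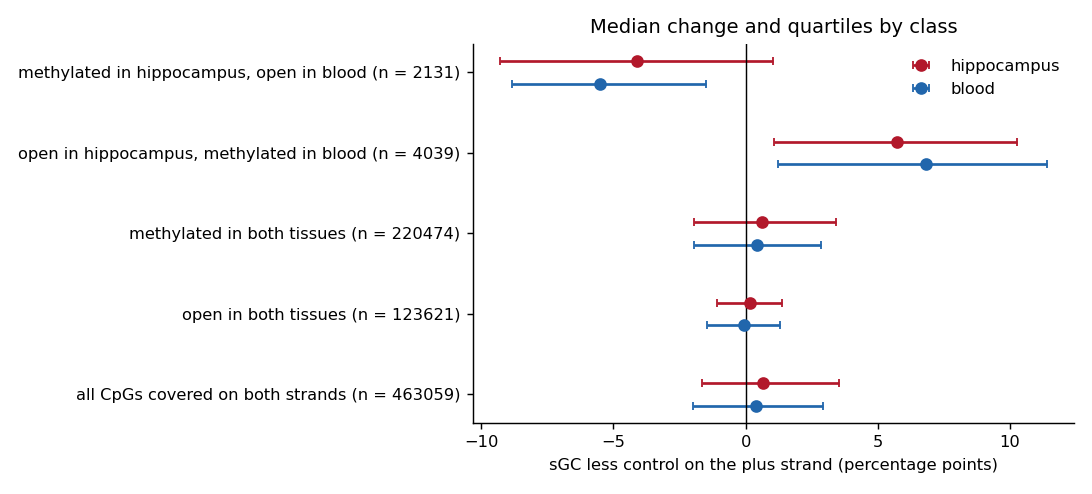
Median difference of sGC less control on the plus strand (percentage points, x axis) with its quartiles (bars) in hippocampus and blood, for the 4 classes of CpGs set by the minus strand of the control pools and for all CpGs covered (y axis). The CpGs methylated in hippocampus and open in blood lie below 0 in both tissues (-4.11 and -5.52 points), the reverse class lies above 0 (5.73 and 6.83), and the other classes lie near 0.

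The size of the difference moved with the read depth. The CpGs whose smallest pool had 20 to 54 reads (n = 534) had a median of -0.721 points in hippocampus and -3.26 points in blood, and 53.2% and 71.0% of them were lower with sGC. With 55 to 83 reads (n = 544) the medians were -2.15 and -3.25 points, and with 84 to 119 reads (n = 530) they were -5.23 and -6.37 points. With 120 to 248 reads (n = 523) they were -7.44 and -7.29 points, and 90.2% and 96.6% were lower. Over all CpGs covered the medians in the same 4 ranges were 0.764, 0.665, 0.721 and 0.579 points in hippocampus and 0.317, 0.314, 0.460 and 0.427 points in blood. The reverse class also moved, from 3.16 to 8.28 points in hippocampus and from 3.48 to 9.62 points in blood between the lowest and the highest range. Read depth differs between fragments of the genome, and its part in the difference was not tested.

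The difference moved less with the gap between the tissues. Where the control gap on the minus strand was smallest, 50.2 to 62.3 points, the medians were -4.95 points in hippocampus and -6.19 in blood. Where it was widest, 74.1 to 96.2 points, they were -2.73 and -4.14 points. Both medians were thus nearer to 0 where the tissues differed most.

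Few single CpGs passed the test in hippocampus. By Fisher's exact test with Benjamini-Hochberg adjustment over every cytosine in the tissue's table, and with the same limits for a call, 11 CpGs (0.516%) were hypomethylated with sGC and none was hypermethylated, while 0.0473% of all CpGs covered were called hypomethylated and 0.0989% hypermethylated. At an unadjusted p below 0.05, 356 (16.7%) were lower and 21 were higher, against 1.69% and 4.63% of all CpGs covered. The 11 CpGs lay on 9 scaffolds, with differences from -30.3 to -16.6 points. All 11 were also lower in blood, where their median difference was -9.28 points and 4 of them were called. All 11 were lower in hippocampus on the minus strand too, whose control values the rule used, so this is not separate support. The minus-strand median over the set was -5.43 points in hippocampus, against 0.640 over all CpGs covered. A chi-square test in place of Fisher's made 12 calls, and no call when its statistic was divided by its inflation over the tissue (1.76).

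The widest difference in hippocampus lay at position 10357 of DS563211.1, where 39 of 105 reads (37.1%) were methylated in sGC and 56 of 83 (67.5%) in control hippocampus (Fisher's exact test with Benjamini-Hochberg adjustment, adjusted p = 0.0348). Blood had 3.82% and 12.3% there. A nearby CpG, at position 10387, fell from 88.0% in control to 61.5% in sGC hippocampus. At position 314530 of the same scaffold, 59 of 119 reads (49.6%, 95% Wilson interval 40.8 to 58.4) were methylated in sGC and 96 of 126 (76.2%, 68.0 to 82.8) in control hippocampus, and the intervals, which cover counting error only, did not overlap. In blood the same CpG had 0 of 153 reads with sGC, which allows a level of up to 1.96%, and 14 of 118 (11.9%) in control, and it was called in both tissues (Fisher's exact test, adjusted p = 0.0209 and 0.00405). The hippocampal differences were smaller on the minus strand, whose control values the rule used. These CpGs were named here for the size of their plus-strand difference. The minus-strand differences were -12.2 points at position 10357, -6.30 at 10387 and -6.65 at 314530, so the size of the fall at these CpGs is uncertain.

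The other 3 CpGs called in both tissues had like values. At position 20596165 of DS562867.1 hippocampus had 185 of 304 reads (60.9%) with sGC and 205 of 258 (79.5%) in control, and blood 6 of 332 (1.81%) and 27 of 248 (10.9%). At position 1253876 of DS563033.1 the levels were 60.2% and 86.1% in hippocampus and 1.16% and 12.5% in blood. At position 2018624 of DS562882.1 they were 69.4% and 92.7%, and 1.58% and 13.1%. In all of these blood held almost no methylated reads with sGC, and hippocampus kept most of its methylation. Their hippocampal differences were smaller on the minus strand, at -8.20, -5.58 and -9.67 points in the same order.

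More CpGs passed in blood, again all in one direction. There 164 CpGs (7.70%) were hypomethylated with sGC by the same Fisher's exact test and none was hypermethylated, against 0.178% and 0.285% of all CpGs covered. At an unadjusted p below 0.05, 769 (36.1%) were lower and 18 were higher, against 2.54% and 4.74%. The 164 CpGs lay in 120 stretches on 72 scaffolds, and their median level was 1.18% in sGC and 13.4% in control blood. Of these, 157 were also lower with sGC in hippocampus, by a median of -9.57 points over the 164. On the minus strand in blood, whose control values the rule also used, 162 of the 164 were lower with sGC. The minus-strand median over the set was -4.60 points in blood, against 0.398 over all CpGs covered. A chi-square test made 173 calls, and 8 when its statistic was divided by its inflation over the tissue (1.73).

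The 10 called CpGs with the widest differences in blood had from 0% to 9.83% methylation there with sGC. At position 7561703 of DS562917.1, 3 of 86 reads (3.49%) were methylated in sGC and 22 of 85 (25.9%) in control blood, while hippocampus had 91.8% and 90%. A stretch of DS562945.1 from position 4365942 to 4365985 held 5 of the chosen CpGs, and all 5 were called. At its last CpG, 0 of 150 reads were methylated in sGC blood, which allows up to 2%, and 31 of 143 (21.7%) in control blood (Fisher's exact test with Benjamini-Hochberg adjustment, adjusted p = 8.5e-08), and hippocampus had 61.6% and 79.8%. Since neighbors on one fragment share reads, these 5 are not independent. On DS563901.1 the CpG at position 15777 had 2 of 169 reads (1.18%) methylated in sGC and 31 of 135 (23.0%) in control blood, and 67.1% and 86.0% in hippocampus. The differences in blood were smaller on the minus strand, whose control values the rule held to at most 20%. Position 4365985 had 0.913% in sGC and 7.19% in control blood there. The minus-strand difference was -5.74 points at 7561703 and -15.3 at 15777. At position 6905 of DS563955.1, also among these 10, it was 0.833 points.

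No CpG of the set was called for a difference between the tissues in their change with sGC, by a normal test of the difference of the log odds ratios with Benjamini-Hochberg adjustment over all cytosines in both tables, while 0.0153% of all CpGs covered were called. At an unadjusted p below 0.05 there were 299 (14.03%), against 4.69% of all CpGs covered. Of these, 282 had the greater fall of odds in blood (13.2% of the chosen CpGs, against 2.4% of all). The lowest unadjusted p was at position 4375859 of DS562945.1, with 78.2% in sGC and 71.8% in control hippocampus and 2.14% and 12.2% in blood. Equal changes in points are unequal changes in odds at levels near 0, so the count depends on the scale.

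The CpGs lay in short stretches. Joined over gaps of at most 200 bp they formed 1189 stretches, of which 769 held 1 CpG and 75 held at least 5, up to 14. The mean of a stretch was lower with sGC in hippocampus in 870 (73.2%) and in blood in 1003 (84.4%). It was lower in both in 773 (65.0%) and higher in both in 89. Among the 75 stretches of at least 5 CpGs, 54 (72%) were lower in both tissues and 3 were higher in both.

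The stretch on DS562873.1 from position 27396801 to 27397071 held 11 of the CpGs, which are all of those covered there. Across them the methylation ran from 73.6% to 81.6% in sGC and from 79.0% to 93.1% in control hippocampus. In blood it ran from 0% to 3.29% in sGC and from 11.8% to 16.7% in control. The ranges over the CpGs thus did not overlap in blood and overlapped slightly in hippocampus. They are ranges over neighbors that share reads, in 1 pool per group, and say nothing about the spread between animals. The stretch means were 77.0% and 88.3% in hippocampus and 1.00% and 13.1% in blood. All 11 CpGs were lower with sGC in both tissues, 9 were called in blood and none in hippocampus by Fisher's exact test, where 7 had an unadjusted p below 0.05. Its CpG at position 27396978 had 0 of 208 reads methylated in sGC blood, which allows up to 1.44%, and 19 of 148 (12.8%) in control blood.

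The other long stretches did not all move alike. The stretch on DS562917.1 from 4404782 to 4405242 held 13 CpGs with means of 74.4% in sGC and 81.9% in control hippocampus and 5.09% and 13.8% in blood. On DS562870.1, from 37739704 to 37739931, 10 CpGs had means of 77.3% and 83.9% in hippocampus and 3.65% and 11.9% in blood, and all 10 were lower in both. On DS562883.1, from 27577671 to 27577882, 9 CpGs had 68.6% and 78.5%, and 3.51% and 12.0%. Lower means with sGC in both tissues were thus seen in these 3 stretches, with at most 2 CpGs called in any of them, in blood.

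The longest stretch, 14 CpGs on DS565288.1 from 2331 to 2827, had higher means with sGC, at 78.0% against 74.9% in hippocampus and 11.3% against 7.16% in blood, and its pools had 22 to 174 reads per CpG. The stretch on DS562860.1 from 24820481 to 24820709 had 81.8% against 80.5% and 11.8% against 7.57%, with 37 to 94 reads. None of the CpGs of these 2 stretches was called in either tissue. In the other 4 of the 10 longest stretches, on DS562951.1, DS563164.1, DS563058.1 and DS563026.1, the mean changes ran from -2.35 to 0.651 points in hippocampus and from -4.52 to -1.38 points in blood, with no CpG called.

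**Figure D4:**
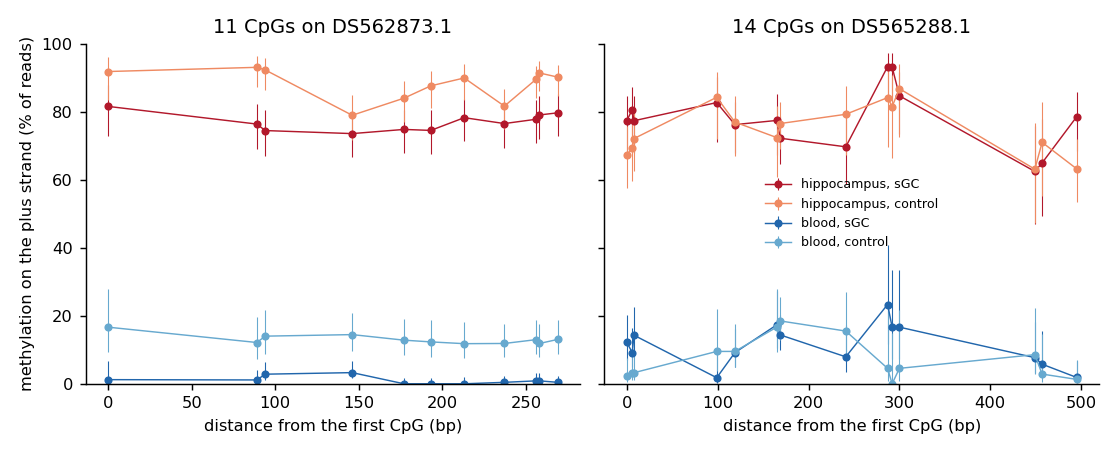
Methylation on the plus strand (% of reads, y axis) of each CpG against its distance from the first CpG of the stretch (bp, x axis), for the 11 CpGs on DS562873.1 and the 14 on DS565288.1. Points are the 4 pools and bars their 95% Wilson intervals. The sGC points lie below the control points at all 11 CpGs of DS562873.1 in both tissues, and on both sides of them on DS565288.1.

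Around the chosen CpGs the low methylation of blood ended within about 1000 bp. The other covered CpGs at 1 to 25 bp from the nearest chosen one (n = 859) had medians of 70.7% in control hippocampus and 14.1% in control blood. At 101 to 200 bp (n = 585) these were 71.4% and 27.0%, and at 201 to 500 bp (n = 1403) they were 74.5% and 58.5%. At 501 to 1000 bp (n = 1673) they were 79.4% and 82.9%, so that blood had reached the level of hippocampus.

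The difference with sGC was also found in these neighbors, which the rule did not choose. Its median was -2.93 points in hippocampus and -4.31 points in blood at 1 to 25 bp, and -2.52 and -4.17 points at 51 to 100 bp (n = 599). At 201 to 500 bp it was -0.454 and -1.43 points, and at 501 to 1000 bp it was 0.569 and -0.0178 points. The hippocampal value was then close to the median of all CpGs covered (0.654). Blood came close to its own (0.400) at 1001 to 2000 bp, with 0.421 points. Neighbors on one fragment share reads with the chosen CpGs, so these medians describe the surroundings without a separate test. In the reverse class the neighbors at 1 to 25 bp (n = 2152) had medians of 4.91 and 4.52 points.

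**Figure D5:**
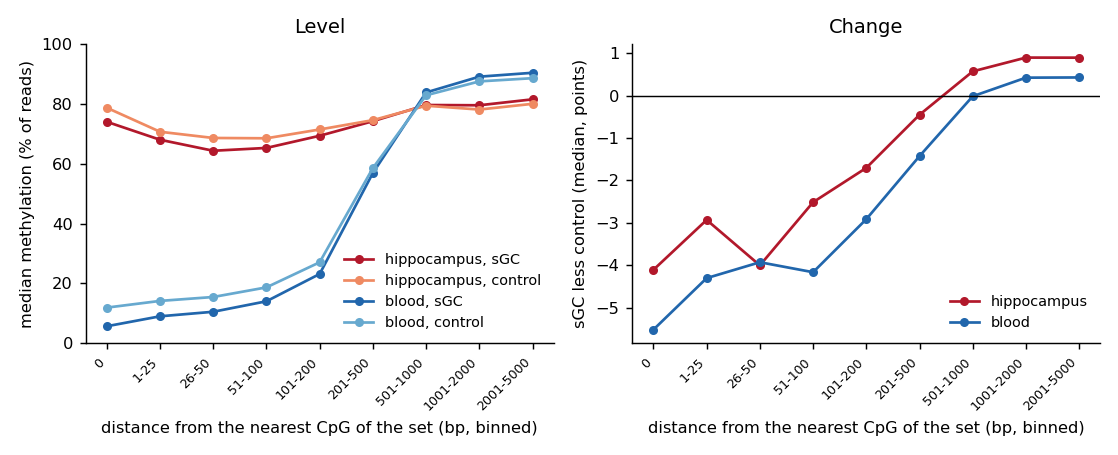
Median methylation (%, left) and median difference of sGC less control (percentage points, right) on the plus strand of covered CpGs outside the set by distance from its nearest CpG (bp, binned, x axis), in hippocampus and blood, with the set itself at 0. Control blood rises from 11.9% in the set to 82.9% at 501 to 1000 bp, and the differences approach 0 over the same range.

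The CpG density around the chosen CpGs was close to that of all CpGs covered. A chosen CpG had a median of 6 other listed CpGs within 100 bp (quartiles 4 and 9), as had CpGs methylated in both tissues (6). The median was 7 over all CpGs covered and in the reverse class, while CpGs open in both had 11. The nearest listed CpG was a median of 10 bp away, against 9 bp over all CpGs covered and 6 bp for CpGs open in both tissues.

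The set was spread over the genome, on 158 of the 832 scaffolds that held a covered CpG, with 102 CpGs on DS562880.1 and 86 on DS562870.1. On the 20 scaffolds with the most of them, 987 in all, the median difference with sGC was below 0 on all 20 in both tissues, from -7.19 to -1.61 points in hippocampus and from -7.51 to -1.67 points in blood. Most of the smaller sets of at least 10 CpGs also had medians below 0 in hippocampus, but not all. The median there was 3.77 points on DS563211.1 (13 CpGs) and 2.55 points on DS563033.1 (11 CpGs), which both hold CpGs called lower in hippocampus. Their blood medians were -7.05 and -5.66 points. The hippocampal median was also above 0 on DS563159.1 (10 CpGs), at 0.647 points, with -1.82 points in blood. The densest scaffolds with at least 10 were small ones, with 19 of the 125 CpGs covered on DS565288.1 (15.2%) and 25 of 180 on DS563636.1 (13.9%), compared to 0.460% in all.

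Gene names could be given to 22 of the CpGs in 11 genes, from the study's lists of differentially methylated cytosines, which name 12 of these CpGs directly and enclose the others between cytosines of one gene. Those lists were chosen on these samples, so their directions are not independent evidence. Of the 22, 17 were lower with sGC in hippocampus and 19 in blood, and by Fisher's exact test none was called in hippocampus and 1 in blood. In the whole set 70.4% and 82.7% were lower, and 0.516% and 7.70% were called, so these few CpGs do not stand apart from it. The CpG called in blood lies in LGSN, which encodes lengsin, a protein of the eye lens related to glutamine synthetase, at position 82847471 of DS562855.1. Its hippocampus had 165 of 223 reads (74.0%) methylated with sGC and 118 of 135 (87.4%) in control, and its blood 10 of 222 (4.50%) and 32 of 191 (16.8%).

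FXYD6, which encodes a small membrane regulator of the sodium pump, held 3 of the CpGs close together on DS562874.1. The first, at position 30215976, had 75.2% in sGC and 87.0% in control hippocampus and 3.10% and 8.28% in blood, and all 3 were lower with sGC in both tissues. ANGPT1, which encodes a ligand of vascular endothelium, had 66.3% with sGC and 74.3% in control hippocampus, and 13.0% and 28.6% in blood.

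Among the others, SMARCB1, a core subunit of the SWI/SNF chromatin remodeling complex, had 66.9% in sGC and 75.7% in control hippocampus and 1.53% and 8.22% in blood. COL4A1, a collagen of basement membranes, had 64.6% and 72.0%, and 10.2% and 19.9%. ACACB, an acetyl-CoA carboxylase of mitochondria, had 55.4% and 62.4%, and 0% and 6.43%. These 3 were lower with sGC in both tissues without a call, although SMARCB1 was higher on the minus strand, by 5.95 and 0.583 points. LOXL2, a lysyl oxidase that links collagen, differed from them in direction, with 81.5% and 63.3% in hippocampus and 16.3% and 12.5% in blood, also without a call and on 27 and 30 reads in the hippocampal pools. On the minus strand, whose control values the rule used, LOXL2 had the opposite direction, with -22.2 points in hippocampus and -4.80 points in blood. Other CpGs were also higher with sGC in hippocampus on the plus strand. They lay in ROR1 (position 68170992, 5.48 points), TESC (2636172, 5.89), NKAIN2 (76488804, 2.42) and LGSN (82847606, 4.12). Their minus strands had the opposite direction, at -7.26, -6.15, -6.47 and -1.10 points in the same order. In blood ROR1 was higher at 68170992 (1.27 points) and 68171024 (1.35), but on the minus strand these had -6.43 and -1.75 points. The other CpGs of ROR1, TESC and LGSN were lower in hippocampus on the plus strand. Some of them were higher on the minus strand, such as LGSN at 82847613 (7.79 points). ARHGEF3 was lower in both tissues.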

How the data were processed

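RRBS was run on hippocampus and whole blood of 12 guinea pigs, 24 samples in 4 groups of 6. Per the labels and the methods, the authors trimmed reads with Trim Galore, aligned them with Bismark 0.16.0 to cavPor3, sorted them with SAMtools 1.7 and ran MethPipe, in which batch was a covariate. The deposited tables give, per tissue and cytosine, counts of methylated reads and the total read coverage, each summed over the 6 animals of a group, not normalized, with at least 10 reads. They list 2869370 cytosines in hippocampus, 2927801 in blood and 2564116 in both. The deposited FDR, an adjusted p-value of the authors' own comparison, was not used. Because reads were summed, batches and animals cannot be separated, and any difference between animals adds calls to the Fisher test. PCR copies without molecular identifiers are not independent molecules, so intervals cover counting error only.

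From the counts, methylation was computed as the percentage of methylated reads. Of 506034 CpGs listed on both strands in both tissues, 463059 had at least 20 reads on each strand in all 4 pools. Differences of sGC less Con, and of hippocampus less blood in sGC, were tested with a two-sided Fisher's exact test per cytosine, with Benjamini-Hochberg adjustment over all cytosines listed (or listed in both tables), and called at an adjusted p below 0.05 and at least 5 points. The change in hippocampus was compared with that in blood on log odds ratios with 0.5 added to each count. A count of 0 was taken to allow 3 reads. The tests were checked on simulated independent reads at 200000 cytosines. The simulation held no spread between animals and no PCR copies, so it cannot show how many calls these add.

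The CpGs named were the 10 stretches with the most members, up to 10 calls per tissue by size, the lowest p between tissues, those nearest the limits, the 5 with the highest and the 5 with the lowest gap in sGC, and CpGs in genes named by the study's lists, of which the copies used here were incomplete. No call existed for the difference between tissues, so the lowest p was named after the values were seen. The CpG at 10387 of DS563211.1 and those of DS562945.1 fall under the calls by size, and the stretch of DS562945.1 was singled out after its values were seen. The members and lists were chosen with earlier results of these data known. Gene lists of blood, neuron, glia, glucocorticoid and Hox genes were not analysed here, since no annotation or sequence of the build was used. All 11 gene symbols were found in the RefSeq table. Positions are those of the tables, whose first base (0 or 1) is not stated in the sources used here. Alternatives changed the coverage minimum, the limits, the strand, the minimum difference, the adjustment, the test and the unit counted. Tools were Python 3.11.15, scipy 1.17.1, numba 0.67.0, matplotlib 3.10.9, pandas 2.3.3 and numpy 2.4.6.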

Additional observations from a re-analysis of the deposited data

How the results depend on the processing

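The median differences were below 0 in both tissues under every alternative run. In the hippocampus the median was -5.03 points at 50 reads or more, -2.08 with the stricter limits (80% and 10%) and -5.11 in summed reads, and -3.67 and -3.58 when the sGC pools or both pools chose the CpGs. In the blood it was -6.24, -3.52, -6.00, -5.11 and -5.08 points in the same order, and -5.32 with the looser limits (60% and 30%). The stricter limits left 362 CpGs, the looser 5094 and both pools 1366. Calls in the hippocampus numbered 2, 23, 20 and 0 with the stricter limits, the looser limits, adjustment over the covered plus strands and a chi-square statistic divided by its inflation, which without division gave 12. Calls in the blood numbered 26 and 270 with the stricter and looser limits, 8 with the divided chi-square statistic (173 without division), and 106 and 93 when the sGC pools or both pools chose the CpGs. Calls between tissues in sGC numbered 362, 5037 and 1363 with the stricter limits, the looser limits and both pools. Counts under other limits or selections were taken over other numbers of CpGs, and why the counts differ was not tested. The number of CpGs was not all that changed, since selection on sGC gave 106 calls in the blood among 2070 CpGs, against 164 among 2131. Selection on sGC and on both pools and the undivided chi-square test were added after the data were seen. All calls were lower with sGC except for 1 of 173 in the blood at 10 reads or more.

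No paired analysis was possible because the tables hold reads summed over the animals of a group, and leaving out a replicate was not possible for the same reason. With 1 value per pool, a difference cannot be set against the spread between animals. The study's methods state that sequencing runs were balanced over tissues and treatments, and batches are not separate in these sums. At the minimum of 20 reads, 1 read is worth 5 points.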
